A study of Homo sapiens with 2 samples.

Results

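PABPC1 and PABPC4 are the genes of the cytoplasmic poly(A)-binding proteins that were removed and replaced in these cells, and their own transcripts were followed here over the graded replacement. Their poly(A) sites were taken as the sites on the minus strand of chromosome 8 between positions 101714800 and 101734400 for PABPC1 (ENSG00000070756.15) and of chromosome 1 between positions 40026200 and 40042600 for PABPC4 (ENSG00000090621.13). Of 8995 poly(A) sites with reads in the listed subsamples, 3 lay inside these intervals, and all 3 were found in both libraries. PABPC1 had 2 sites, at position 101715138, called the gene-end site here, and at position 101716508, called the upstream site. PABPC4 had 1 site, at position 40026488.

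The cells were HCT116, a human colon cancer line, studied as polyclonal lines whose PABPC1 and PABPC4 genes both carried an mAID degron, a tag that leads to removal of the protein when auxin is added. A Sleeping Beauty transposon, integrated in many copies, carried a transgene, either PABP1212, a PABPC1 with duplicated RRM1 and RRM2 domains, or PABPC1. To start the replacement, cells were kept for 13 days with doxycycline (1 μg/mL), which induces the transgene, and with the auxin IAA (indole-3-acetic acid, at 0.5 mM). They were then sorted by transgene expression into 4 gates of 25% each, named here lowest, second-lowest, second-highest and highest level, and uninduced cells that were neither treated nor sorted were sequenced beside them. Each transgene was 1 nanopore direct RNA library of 5 barcoded subsamples with 65862 to 630986 reads each, so that a level was measured once per library. Both the uninduced and the sorted cells carried the degron tags and the transposon. The transgene cannot be told apart from the library, nor the level from its barcodes, and the sorted cells differ from the uninduced ones in both agents and in having been sorted. The tables pair no sites with gene names, so markers of the colon line and other genes of the pathway were not checked.

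Cytoplasmic poly(A)-binding proteins coat the poly(A) tails of mRNAs through RNA recognition motifs (RRMs), contact the translation initiation complex, and take part in both protection and shortening of tails. PABPC1 is the main form in most cell types, and PABPC4 is a close relative. PABPC1 protein is also known to bind an A-rich stretch in the 5′ part of its own mRNA and to repress the translation of that mRNA, so that the gene is a textbook case of feedback on its own product.

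The deposited positions are not those of hg38, the build named in the submitters' processing notes, and the intervals follow gene ends of hg19. The labels of the sites were checked by the spacing of neighbouring sites. Within 1000000 nt of the PABPC1 interval, 5 of 8 sites on the strand fell within 10 nt of a GENCODE v29 transcript end at a single shift, against at most 2 at shifts over 1000 nt away from it, and the gene-end site then lay at an end of PABPC1. Around PABPC4, 3 of 4 sites matched, against at most 2, and the site lay at an end of PABPC4. Both shifts were picked for having the most matches. With only 4 sites around PABPC4, the check cannot settle that label, which rests on the interval. No position was converted. Which PABPC4 transcript end the site matched is not given here. As an example of an annotated end of the gene, the last 30 bases of the first-numbered PABPC4 transcript of GENCODE v29 follow. They lie on the minus strand of chromosome 1 and are read on the transcript strand.

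PABPC4 transcript end: tcccAATAAAgaaaaaaaatctccataaaa

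The capitals mark AATAAA, the poly(A) signal that directs cleavage of the pre-mRNA, 20 nt before the last base. The same hexamer, searched on the transcript strand, is present in the last 30 bases of the first-numbered PABPC1 transcript and of 30.6% of the 83129 protein-coding transcripts of that annotation.

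The upstream PABPC1 site lay 1370 nt before the gene-end site. The first-numbered PABPC1 transcript has 15 exons, and its last exon is 444 nt long. Counted along the genome, with the last intron included, its stop codon ends 1382 nt before the transcript end. That codon lies in the penultimate exon, whose last base is 1381 nt before the end on the same count. If the gene-end site is taken as the end of that transcript, the upstream site falls in the last intron, 11 nt past the exon with the stop codon. The spacing check allowed 10 nt, so this distance is approximate. The tables give no sequence of the reads, and the labels do not say which 3′ end the transgene carries, so reads of the transgene and of the cell's own PABPC1 gene cannot be told apart at either site. Of the 13 distinct spike sequences in the deposited barcode table, 7 matched PABPC1 coding sequence over 56 to 106 nt at 98.9% identity or more, and 1 of these matched PABPC3 equally well. Their matches ended 699 to 1810 nt before the stop codon, counted along that transcript without introns, away from both sites. Each spike is listed with a single level, so the spiked stretches of PABPC1 differ between uninduced cells and the sorted levels. Whether spike reads are among those at the PABPC1 sites was not tested.

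The upstream PABPC1 site gained reads with every step of the sort, in both libraries. In the PABP1212 library it had 85.3 RPM (reads per 1000000 reads of the subsample) in uninduced cells, with an exact Poisson 95% interval of 50.6 to 135. The sorted cells of that library had 436 RPM (334 to 560), 551 (470 to 641), 964 (888 to 1043) and 2036 (1922 to 2156), in the order from the lowest level up. With PABPC1 it had 133 RPM (60.9 to 253) in uninduced cells, and the sorted cells had 273 (162 to 432), 411 (296 to 555), 693 (580 to 821) and 1966 (1707 to 2253). The order of the levels was the same in both libraries, and the interval of the highest level lay above those of all other subsamples. The highest level had 23.9 times the uninduced value with PABP1212 (95% interval 15.0 to 40.4, from 1179 against 18 reads) and 14.8 times with PABPC1 (7.62 to 32.7, from 206 against 9 reads). All intervals here cover counting error only, since a level was measured once per library. The gates were set on expression of a transgene that is itself a form of PABPC1. A rise of transgene reads over the gates is set by the sort, and whether the upstream reads come from the transgene was not tested. The p-values given for this site below do not bear on that.

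**Figure D1:**
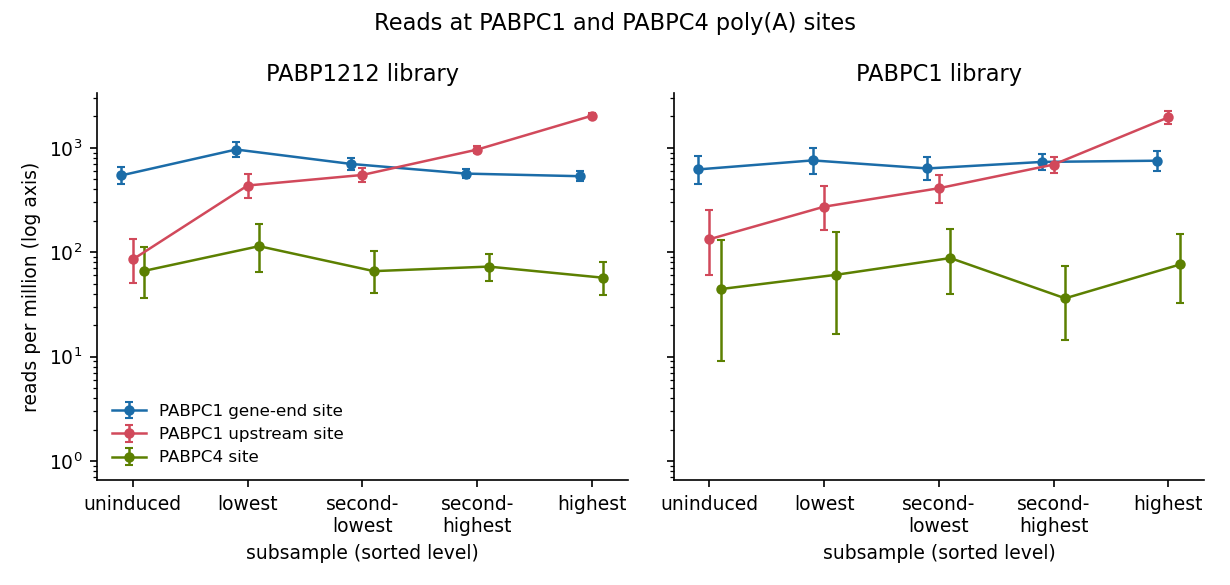
Reads per 1000000 reads (RPM, log axis) at the 3 sites in uninduced cells and at the 4 sorted levels, with exact Poisson 95% intervals, in the PABP1212 library (left) and the PABPC1 library (right). The upstream PABPC1 site reaches 2036 and 1966 RPM at the highest level, while the gene-end site stays between 535 and 965 and the PABPC4 site between 36.2 and 114.

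The gene-end PABPC1 site, where reads of the annotated full-length mRNA end, did not follow that course. With PABP1212 it had 545 RPM (450 to 654) in uninduced cells, 965 (809 to 1142) at the lowest level, then 702 (611 to 803), 567 (510 to 629) and 535 (477 to 598) at the highest. With PABPC1 it had 622 (448 to 840) in uninduced cells and 759 (563 to 1001), 636 (491 to 810), 734 (618 to 865) and 754 (597 to 940) from the lowest to the highest level. In the PABP1212 library the lowest level stood above uninduced cells, at 1.77 times their value (1.37 to 2.29), and the highest level was at 0.98 times (0.79 to 1.23). The 5 PABPC1 subsamples had overlapping intervals, and their ratios to uninduced cells were 1.02 to 1.22. The site ranked among the most read of the series throughout, with more reads than 97.1% to 98.4% of the 8995 sites.

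The larger share of reads in the PABPC1 interval passed from the gene-end to the upstream site within the series of levels, whichever gene copy the reads come from. The upstream site held 13.5% of PABPC1 reads in uninduced cells of the PABP1212 library (Clopper-Pearson 95% interval 8.22 to 20.5), then 31.1% (24.7 to 38.1), 43.9% (38.9 to 49.1), 62.9% (59.8 to 66.0) and 79.2% (77.0 to 81.2) from the lowest to the highest level. With PABPC1 it held 17.6% (8.40 to 30.9) in uninduced cells, then 26.5% (16.5 to 38.6), 39.3% (29.95 to 49.2), 48.6% (42.5 to 54.6) and 72.3% (66.7 to 77.4). Scaling between subsamples does not enter this share. The uninduced subsamples of the libraries overlapped, and the highest level lay above all others in each library. The slopes were 16.3 and 14.7 percentage points per level. A two-sided exact permutation of the levels gave p = 0.0833 in each library, the smallest that 24 orders allow, and a joint exact permutation over all pairs of such orders gave p = 0.00347, the smallest possible there (0.0226 by Benjamini-Hochberg over the 13 measures of the sites tested this way). The joint test permutes each library on its own, although the same adapters serve a level in both, and the 24 orders common to both libraries could not pass 0.05.

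**Figure D2:**
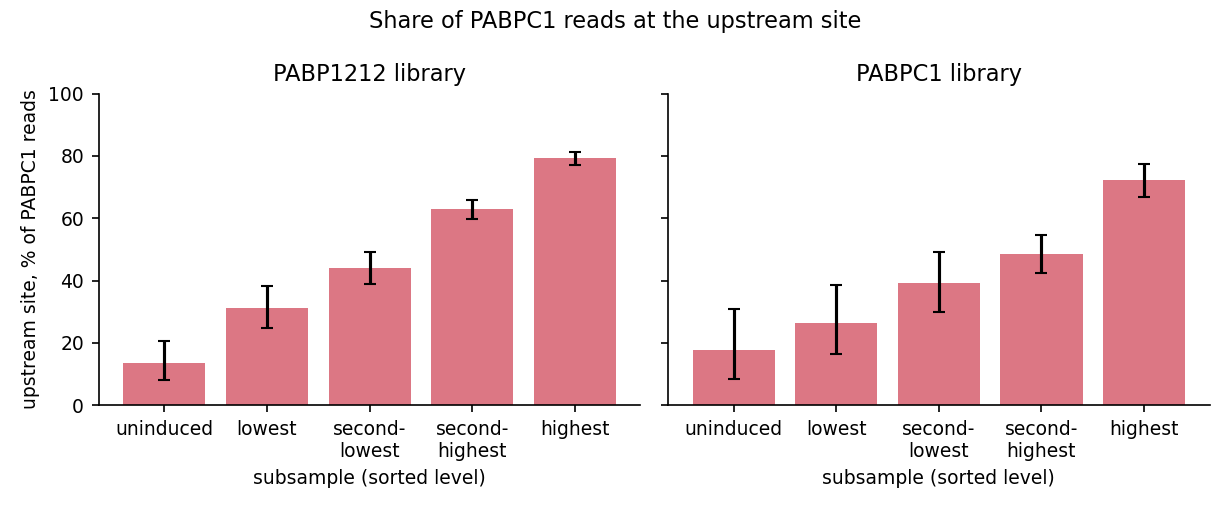
Share of PABPC1 reads at the upstream site (percent, from 0 to 100) in each subsample, with Clopper-Pearson 95% intervals, in the PABP1212 library (left) and the PABPC1 library (right). The share increases at every step, to 79.2% and 72.3% at the highest level.

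Among all sites the upstream site stood at the edge of the distribution. In a limma fit over the 801 sites with a mean of at least 50 reads, on the log2(CPM + 1) scale after median-ratio scaling, its trend was 0.81 ± 0.10 log2 per level with PABP1212 (SE; limma adjusted p = 0.000543), the highest of the 801, and 0.96 ± 0.10 with PABPC1 (adjusted p = 5.88e-05), with 1 other site higher. Of all sites, 19% were called higher in the PABP1212 trend (22.2% in either direction) and 9.99% in the PABPC1 trend (13% in either direction), and the median trends over sites were 0.12 and 0.08 log2 per level. Its difference between sorted and uninduced cells, called the replacement change here, was 3.09 ± 0.24 log2 with PABP1212 (SE; limma adjusted p = 2.17e-06) and 2.12 ± 0.24 with PABPC1 (adjusted p = 7.25e-05), the highest of the 801 in both libraries, where 2% and 9.86% of sites were called higher (12.5% and 25.1% in either direction) and the medians were −0.21 and −0.15. The site entered the fit through its reads in the sorted cells, since it had 18 and 9 reads in the uninduced subsamples. Between the libraries, PABP1212 minus PABPC1, the trends differed by −0.16 ± 0.14 log2 per level (SE; limma adjusted p = 0.759), in a test that called 0% of sites (0 sites, with 53 at an unadjusted p under 0.05). The replacement changes differed by 0.97 ± 0.35 log2, which did not pass after adjustment (limma unadjusted p = 0.0137, adjusted p = 0.315, with 0.624% of sites called). Without the lowest PABPC1 level that difference was 1.10 log2 and passed (limma adjusted p = 0.0317), in a fit whose share of all sites called is not given here. The difference also passed, at 0.97 ± 0.24 log2, when the libraries were paired by level, a fit with 2 residual degrees of freedom added after the data were seen (SE; limma adjusted p = 0.0107, with 41 of 801 sites called against 5 without the pairing). Of the 14 alternatives run for this difference, only these 2 passed.

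The fitted values of the gene-end site were smaller in size. Its trend was −0.22 ± 0.07 log2 per level with PABP1212 (SE; limma adjusted p = 0.0384), a direction in which 3.25% of sites were called, and 0.05 ± 0.07 with PABPC1 (adjusted p = 0.652). The PABP1212 call was lost without the lowest, second-highest or highest PABP1212 level or the second-highest or highest PABPC1 level (adjusted p of 0.0523 to 0.929), and with a filter at a mean of 10 reads. The trends of the libraries differed by −0.28 ± 0.10 log2 per level (limma unadjusted p = 0.0164, adjusted p = 0.648). Its replacement changes were 0.13 ± 0.18 and 0.11 ± 0.18 log2 (limma adjusted p = 0.682 and 0.685). These values are relative to the other sites of a subsample after median-ratio scaling, and are not amounts per cell. With scaling by total reads the PABP1212 trend was −0.29 log2 per level. On that scale the replacement changes were 0.30 with PABP1212 and 0.21 with PABPC1. In bulk RNA, fewer cells with a transcript and less of it per cell cannot be told apart.

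**Figure D3:**
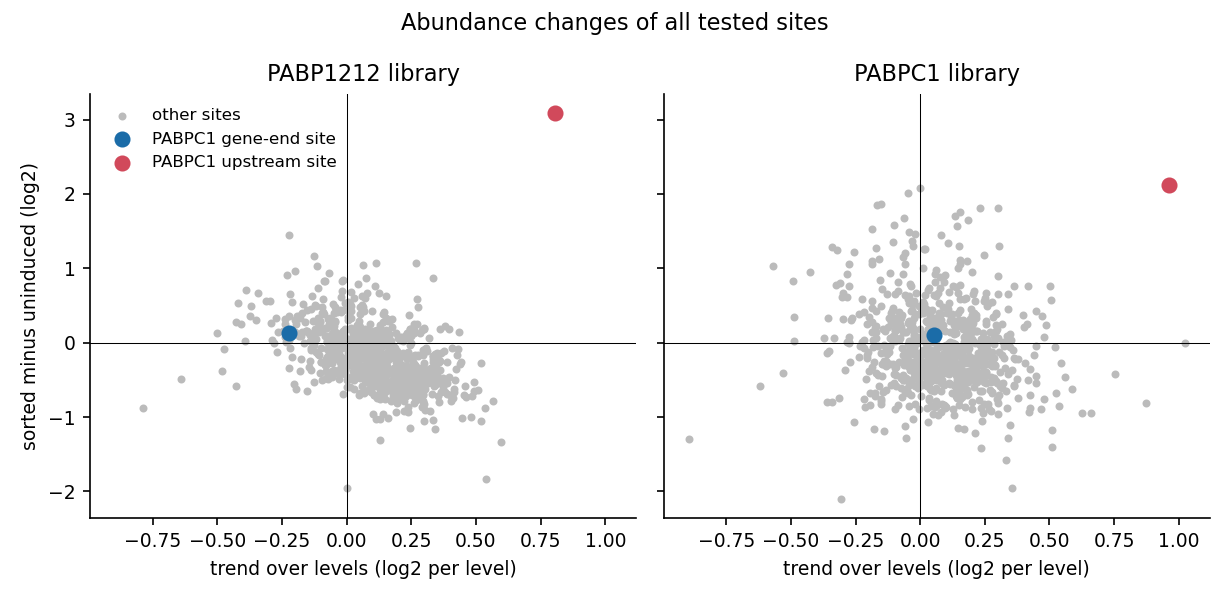
Trend over the 4 levels (horizontal, log2 per level) and difference of sorted from uninduced cells (vertical, log2) for the 801 sites of the limma abundance fit, with PABP1212 (left) and PABPC1 (right). The upstream PABPC1 site lies apart at 0.81 and 3.09 with PABP1212 and at 0.96 and 2.12 with PABPC1, and the gene-end site lies among the other sites.

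With the sites joined, PABPC1 as a whole had 631 RPM in uninduced cells of the PABP1212 library and 1401, 1253, 1531 and 2572 RPM at the 4 levels in rising order, so that the highest level stood at 4.08 times uninduced cells (3.41 to 4.91). With PABPC1 the joined values were 755 RPM in uninduced cells and 1032, 1046, 1427 and 2720 RPM in sorted cells, at 3.60 times (2.67 to 4.95) for the highest level. The joined trend was 0.35 log2 per level with PABP1212 (limma adjusted p = 0.0178) and 0.50 with PABPC1 (adjusted p = 0.00707), so that the sign of the PABP1212 trend of PABPC1 depends on which site is counted. The share of all sites called in the joined fit is not given here, so these calls cannot be set against those of other sites.

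PABPC4 reads were few at this depth. In abundance the site ranked above 64.2% to 77.9% of all sites in the PABP1212 subsamples and above 45.6% to 73.7% in the PABPC1 subsamples. The site had 14, 16, 20, 46 and 33 reads in the PABP1212 library, in the order from uninduced to the highest level, and 3, 4, 9, 7 and 8 reads in the PABPC1 library. In RPM this was 66.4 (36.3 to 111), 114 (65.4 to 186), 65.9 (40.3 to 102), 72.9 (53.4 to 97.2) and 57.0 (39.2 to 80.0) with PABP1212. With PABPC1 it was 44.4 (9.16 to 130), 60.7 (16.5 to 156), 88.0 (40.2 to 167), 36.2 (14.6 to 74.6) and 76.3 (33.0 to 150). The intervals of the subsamples overlapped within each library, and the highest level was at 0.86 times uninduced with PABP1212 (0.45 to 1.74) and 1.72 times with PABPC1 (0.41 to 10.1, from 8 against 3 reads). Its mean of reads was below the minimum of 50. At a minimum of 10, over 4277 sites, of which 0.187% were called for the PABP1212 trend and 2.13% for the PABPC1 trend, its trends were −0.22 ± 0.20 and 0.0065 ± 0.20 log2 per level (SE; limma adjusted p = 0.697 and 0.987). Its replacement changes at that minimum were −0.0019 ± 0.50 and 0.38 ± 0.50 log2 (limma adjusted p = 0.999 and 0.668, with 0.959% and 12.9% of sites called). A change of PABPC4 smaller than these intervals was not detectable at this depth.

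The median tail of PABPC1 reads at the gene-end site was lower at both upper levels than at the lowest, in both libraries. With PABP1212 it was 84 nt in uninduced cells (order-statistic 95% interval 74 to 104), and in sorted cells 106 nt (85–122) at the lowest level, then 93 (82–104) and 81 (68–89), with 89 (76–103) in the top gate. With PABPC1 uninduced cells had 108 nt (51–140), and the gates had 114.5 (104–141), 107 (95–129), 89 (70–106) and 87 (67–100), low to high. The lowest and highest levels did not overlap with PABPC1, and did with PABP1212, while every level overlapped uninduced cells of its library. The slope was −6.3 nt per level with PABP1212 and −10.1 with PABPC1 (two-sided exact permutations, p = 0.25 and 0.0833), and jointly the exact permutation gave p = 0.0208 (0.0542 adjusted over the 13 measures). In the limma fit of log2 tail length over 914 sites, the trends were −0.05 ± 0.06 log2 per level with PABP1212 (SE; adjusted p = 0.503) and −0.21 ± 0.10 with PABPC1 (adjusted p = 0.995). Over all sites of this fit 15.2% were called with PABP1212 and 0% with PABPC1 (0 sites, with 15 at an unadjusted p under 0.05), and the median trends were −0.14 and −0.08. The PABP1212 trend of the gene-end site lay above that of 89.9% of the 914 sites. It passed without the highest PABP1212 level (−0.14, limma adjusted p = 0.0438), where the share of all sites called is not given here. Without that level the median over all sites with at least 10 reads fell by −19.5 nt per level, against −12.75 with it.

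Relative to other sites, the place of the PABPC1 gene-end tails differed between subsamples. The site's median minus the median over the 914 sites measured in all subsamples was −10.5 nt in uninduced cells of the PABP1212 library, and −14.5, −4, 1 and 7 nt in its gates, low to high. With PABPC1 it was 12 nt in uninduced cells and −2, 4, −10 and −12.5 nt in the gates. The site lay below that median at both lower PABP1212 levels and above it at both upper ones, and below it at both upper PABPC1 levels, in all in 6 of 10 subsamples. Against the median over every site with at least 10 reads, a set that grows with depth from 1286 to 6907 sites, it lay below in 8 of 10, among them all 5 PABP1212 subsamples. The PABP1212 minus PABPC1 difference of its log2 trends was 0.16 ± 0.12 per level (SE; limma adjusted p = 0.996, with 0% of sites called and 2 sites at an unadjusted p under 0.05) and lay above that of 97.9% of the 914 sites. The replacement changes of the tail were −0.24 ± 0.18 log2 with PABP1212 and 0.12 ± 0.31 with PABPC1 (SE; limma adjusted p = 0.990 and 1.000), their difference was −0.36 ± 0.36 (adjusted p = 0.996), and 0% of sites were called in either library (34 and 1 at an unadjusted p under 0.05).

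**Figure D4:**
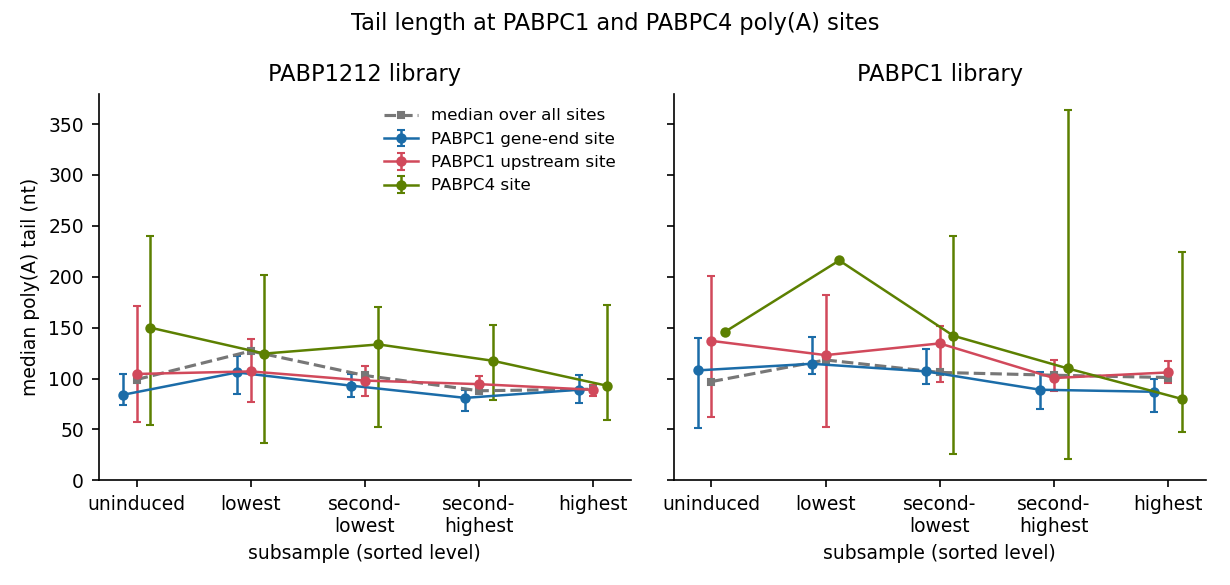
Median poly(A) tail (nt) at the 3 sites with order-statistic 95% intervals (none where reads are under 6), and the median over all sites with at least 10 reads (dashed), in the PABP1212 library (left) and the PABPC1 library (right). Gene-end medians run from 81 to 106 nt with PABP1212 and from 87 to 114.5 nt with PABPC1, with intervals that overlap between most subsamples.

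Reads at the upstream site carried poly(A) tails with medians of 89 to 137 nt over the subsamples. With PABP1212 the uninduced median was 104.5 nt (57–171), and the gates had 107 (77–139), 98 (83–112), 94.5 (86–102) and 89 nt (83–94), low to high. With PABPC1 the uninduced median was 137 nt (62–201), and the gates had 123 (52–182), 134.5 (97–152), 100.5 (88–118) and 106 nt (96–117). The upstream median was above the gene-end median by 1 to 29 nt in 9 of 10 subsamples and equal to it at the highest PABP1212 level, a comparison chosen after the values were seen and not tested. The intervals of the sites overlapped in all 10. The tail slope of the upstream site was −5.75 nt per level with PABP1212 and −8.5 with PABPC1 (exact permutations, p = 0.0833 and 0.417), with a joint exact permutation p of 0.0590 (0.110 adjusted over the 13 measures). With a minimum of 3 reads, added so that this site and PABPC4 could enter, its trends over 3034 sites were −0.08 ± 0.04 log2 per level with PABP1212 (SE; limma adjusted p = 0.242, with 3.69% of sites called) and −0.05 ± 0.08 with PABPC1 (adjusted p = 0.999, with 0% called, 47 sites at an unadjusted p under 0.05). The PABP1212 trend passed without tails of 0 (limma adjusted p = 0.0292) or under 10 nt (0.0186). The share of all sites called in those fits is not given here, so the site cannot be set against others there. Its replacement changes were −0.16 ± 0.33 and −0.21 ± 0.48 log2 (limma adjusted p = 1.000 in both libraries, 91 and 23 sites at an unadjusted p under 0.05).

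Short tails, under 30 nt, were more frequent at both upper levels than at the lowest at the gene-end site of both libraries. They made up 5.22% of its reads in uninduced cells of the PABP1212 library (1.94 to 11.01), then 11.1% (6.35 to 17.7), 12.7% (8.52 to 17.9), 19.3% (15.3 to 23.7) and 18.1% (13.9 to 22.8), beside 6.21%, 7.88%, 9.84%, 14.3% and 13.2% of all reads. With PABPC1 they made up 2.0% at the lowest level (0.0506 to 10.6), then 9.23% (3.46 to 19.0), 11.3% (6.58 to 17.7) and 16.5% (9.06 to 26.5), beside 3.94%, 4.86%, 7.05% and 6.87% of all reads. The uninduced subsample of that library was high, at 21.4% (10.3 to 36.8, from 9 of 42 reads), beside 5.26% of all its reads. The slopes were 2.75 and 4.54 percentage points per level, and the joint exact permutation gave p = 0.00694 (0.0301 adjusted over the 13 measures). The share over all reads was also higher at both upper levels than at the lowest in both libraries.

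The shares of short tails at the upstream site are given beside these without a test. They were below those of the gene-end site in 8 of 10 subsamples. In PABP1212 uninduced cells they were above, at 11.1% against 5.22%, as at the lowest PABPC1 level, at 5.56% against 2.0%. At the upper levels they were 11.02% (8.64 to 13.8) and 13.4% (11.5 to 15.5) at the second-highest and highest PABP1212 levels, against 19.3% and 18.1% at the gene-end site. With PABPC1 they were 8.96% (4.71 to 15.1) and 6.31% (3.403 to 10.5), against 11.3% and 16.5%. Of these 4 levels, the intervals of the sites were separate at the second-highest PABP1212 level and overlapped at the other 3.

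Long tails, of 150 nt or more, at the gene-end site took another course than all reads in the PABP1212 library. With PABP1212 they made up 19.1% of its reads in uninduced cells (12.4 to 27.5) and 24.4% (17.5 to 32.6), 20.7% (15.4 to 26.7), 25.4% (21.0 to 30.3) and 27.4% (22.5 to 32.7) from the lowest to the highest level. All reads of these subsamples had 17.7%, 38.9%, 26.9%, 19.2% and 18.3%. PABPC1 gene-end reads thus had a lower share of long tails than all reads at both lower levels and a higher share at both upper ones, with intervals that excluded the value of all reads at each of the 4 levels. With PABPC1 the site had 28.6% (15.7 to 44.6), 30% (17.9 to 44.6), 24.6% (14.8 to 36.9), 23.2% (16.6 to 31.1) and 20.3% (12.04 to 30.8), and every interval included the value of all reads. The slopes, 1.37 and −3.06 percentage points per level, differed between the libraries by an exact permutation test (p = 0.0278) that did not pass after adjustment over the 13 measures (0.181).

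**Figure D5:**
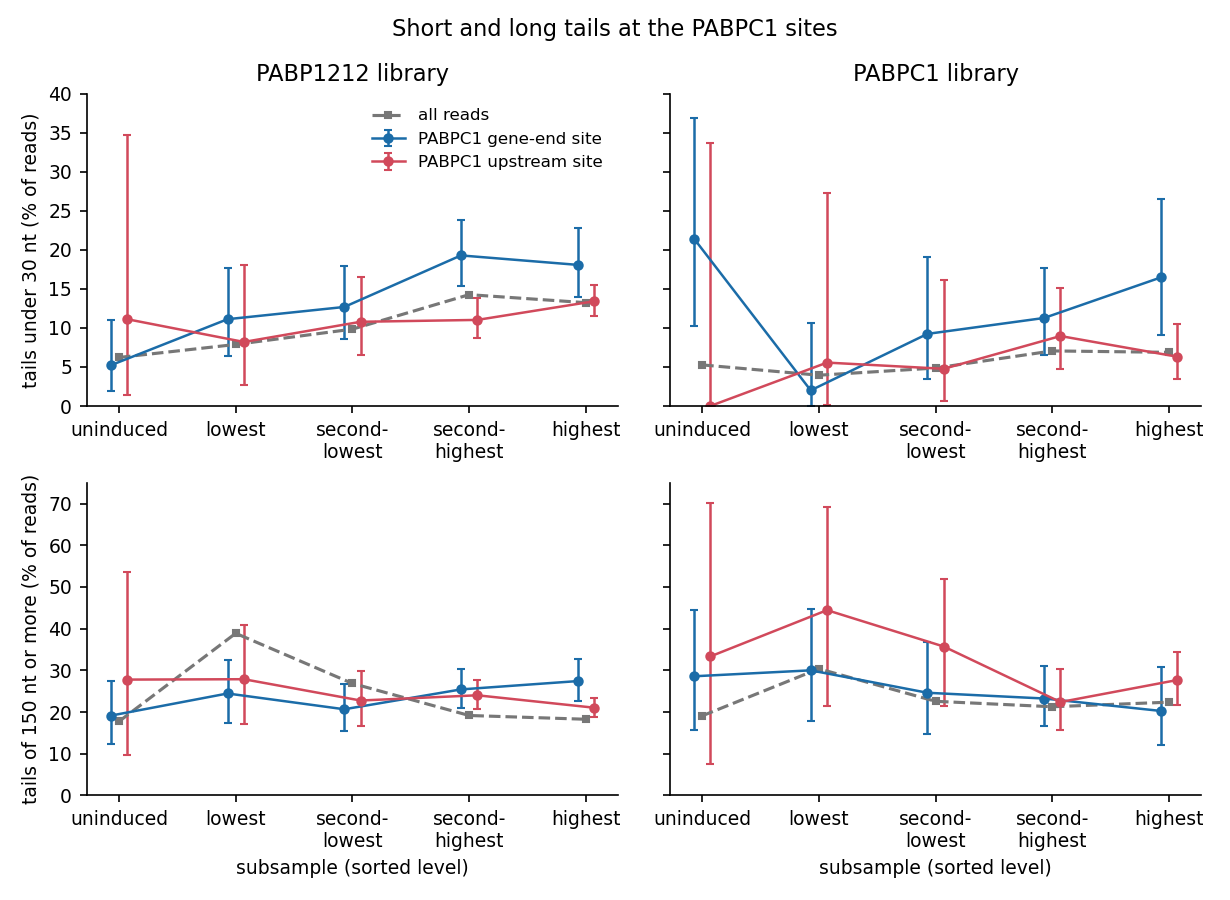
Share of reads with tails under 30 nt (top, percent) and of 150 nt or more (bottom, percent) at the PABPC1 sites with Clopper-Pearson 95% intervals, and over all reads (dashed), in the PABP1212 library (left) and the PABPC1 library (right). Short tails at the gene-end site reach 19.3% and 16.5%, and long tails there stay between 19.1% and 27.4% with PABP1212 while all reads reach 38.9% at the lowest level.

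PABPC4 tails were measured on few reads. With PABP1212 the uninduced median was 150 nt (54–240), and the gates had 124.5 (37–202), 133.5 (52–170), 117.5 (79–153) and 93 nt (59–172), low to high. With PABPC1 the 3 uninduced reads had a median of 146 nt (tails of 121 to 176 nt) and the 4 reads of the lowest level one of 216 nt (151 to 274 nt). The next gates had 142 (26–240), 110 (21–364) and 80 nt (47–224). The PABPC4 median was above that of the PABPC1 gene-end site in 9 of 10 subsamples, by 4 to 101.5 nt, and 7 nt below it at the highest PABPC1 level, again not tested. The PABPC4 tail slope was −11.1 nt per level with PABP1212 and −44 with PABPC1, and the joint exact permutation gave p = 0.0104 (0.0339 adjusted over the 13 measures), on levels of 4 to 46 reads. The median over all sites with at least 10 reads also fell, by −12.75 nt per level with PABP1212 and −5.45 with PABPC1. For that median the joint exact permutation gave p = 0.00694, unadjusted. In limma, with a minimum of 3 reads, the PABPC4 trends of −0.09 ± 0.12 and −0.25 ± 0.24 log2 per level did not pass (SE; adjusted p = 0.629 and 0.999). The replacement changes were −0.38 ± 0.37 and −0.40 ± 0.79 log2 (limma adjusted p = 1.000 in each library).

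The sites whose abundance followed those of PABPC1 most closely were looked up among the other 799 sites with a mean of 50 reads, by Pearson r of log2(CPM + 1), centred within library, over the 10 subsamples. Here CPM was scaled by total reads, without the median-ratio scaling of the limma fits, so slopes differ from the trends above. For the upstream site these were a site at position 52729671 of chromosome 19 (plus strand, r = 0.889), at 172461895 of chromosome 5 (plus strand, r = 0.886) and at 72491372 of chromosome 15 (minus strand, r = 0.881). Their slopes were far smaller than those of the upstream site, at 0.07, 0.06 and 0.21 log2 per level with PABP1212 against 0.75, and at 0.08, 0.38 and 0.13 with PABPC1 against 0.93. For the gene-end site the closest were at 114261834 of chromosome 6 (minus strand, r = 0.910), at 35944917 of chromosome 7 (plus strand, r = 0.884) and at 27190947 of chromosome 1 (plus strand, r = 0.882). The PABPC1 sites themselves had an r of 0.09. These r are descriptions over subsamples that share libraries and depth.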

How the data were processed

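Nanopore direct RNA reads (kit SQK-RNA004, 1 μg of total RNA, custom barcoded adapters, per the labels' protocols) were deposited as 1 row per read, which gives, per the file headers, a subsample, a poly(A) site and the length of the tail (nt). The lengths were used as the authors deposited them. Alignment tools named in the submitters' processing notes are Bowtie2 and minimap2, beside the build hg38, and the tail caller is not given in the sources used here. Per the deposited barcode table, 3 barcodes were merged for each sorted level and 1 serves uninduced cells. Reads under 2 sample names that this table does not list (5.63% of the PABP1212 library and 2.86% of the PABPC1 library) entered no comparison.

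Reads were counted per site. Tail fits used limma 3.58.1 (R 4.3.3) on mean log2(nt + 1), weighted by reads, at a minimum of 10 reads per site in each of the 10 subsamples. Abundance fits used log2(CPM + 1), median-ratio scaling and a variance trend for sites with a mean of 50 reads, where the authors deposited no count table. Terms were library, sorted against uninduced and centred level rank, both within library, with 4 residual degrees of freedom. P-values were Benjamini-Hochberg adjusted over all sites, with a threshold of 0.05, and measure only the spread around a line over levels. The fits were tested on simulated data, with the outcomes not given here. The filter at a mean of 50 reads was taken because earlier simulations on these data showed false calls at a mean of 10. That lower minimum was used for PABPC4 abundance. Level slopes used exact permutations (SciPy 1.17.1), and spikes were matched with BLAST 2.17.0. The members, lists and tests were chosen with earlier results of these data known. Gene lists of the pathway and markers could not be matched, as no annotation of the positions' build was used here. All sites in the intervals and the 3 sites most like each PABPC1 site were named by rule.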

Additional observations from a re-analysis of the deposited data

Results flagged for a closer look

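Some PABP1212 reads carry a sample name absent from the barcode table, and are in no comparison. They held the upstream PABPC1 site at 539 RPM (exact Poisson 95% interval 412 to 694, from 60 of 111259 reads), above the 85.3 (50.6 to 135) of uninduced cells in that library. The value lies between those of the lowest (436) and second-lowest (551) sorted levels there. At the gene-end PABPC1 site, 32.1% of these reads had a tail of exactly 0 (Clopper-Pearson 95% interval 21.9 to 43.6, from 25 of 78 reads), above the 0% of 115 uninduced reads there, which allows up to 3.16%, and 23.6% of all reads under that name had a tail of 0. The labels give these reads no level.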

How the results depend on the processing

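Abundance trends and replacement changes of the PABPC1 upstream site kept direction and call in each library under all alternatives run (trend 0.65 to 0.98 log2 per level with PABP1212 and 0.72 to 1.14 with PABPC1; change 2.95 to 3.26 and 1.92 to 2.24). Of 30 results, 19 kept their direction throughout. With PABPC1 sites joined, the gene-end abundance trends became 0.35 with PABP1212 (reversed) and 0.50 with PABPC1, and the changes 1.19 and 0.82, all past the threshold, since the joined feature holds the upstream reads. For the joined fit, too, the share of all sites called is not given here. The PABP1212 gene-end trend of −0.22 did not pass with a mean of 10 reads or with no filter, where more sites were tested. As nt without a log, the gene-end tail changes were 7.00 (PABP1212), −9.70 (PABPC1) and 16.7 nt (difference). With subsample medians subtracted the PABP1212 tail trends were 0.11 (gene-end) and 0.058 (PABPC4). Without tails of 0 or under 10 nt the PABP1212 tail trends were −0.11 and −0.12 at the upstream site and 0.067 in both for PABPC4. Those of the upstream site were past the threshold, with the share of all sites called not given here. PABPC4 abundance changes with PABP1212 were 0.0013 with a pseudocount of 10 CPM and 0.17 with total-read scaling, and its PABPC1 trends −0.028 with total-read scaling and −0.082 with voom. Leaving out a subsample gave −0.31 to −0.16 for the PABP1212 gene-end abundance trend, −0.041 to 0.077 for its change difference, −0.14 to −0.013 for the PABP1212 gene-end tail trend, 0.82 to 1.16 and −0.33 to 0.087 for the upstream change and trend differences, −0.26 to 0.022 for the upstream PABPC1 tail trend, −0.13 to 0.10 for the PABPC4 change with PABP1212 and −0.31 to 0.11 for its PABPC1 trend. The cause was not tested where none is given. The labels give no replicate numbers that pair samples. Pairing the libraries by level (level as replicate block, added later) left the library differences in direction and changed 1 call, the upstream change difference of 0.97 (limma adjusted p = 0.0107). It called 41 sites for change differences (5 without it), 14 for trend differences (0 without it) and 1 for tail trend differences (0 without it). Depth limits PABPC4 most, at 3 to 46 reads per subsample.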
